A study of Homo sapiens with 8 samples.

Results

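The 60 listed mitosis and cell cycle genes were chosen by name and function with earlier results of these data known, and 59 of them had at least 1 local splicing variation (LSV) in the authors' deposited tables. An LSV is a set of junctions that all leave 1 exon (a source LSV) or all enter 1 exon (a target LSV), with any retained intron counted as a further choice. The 59 genes were among 11431 genes with an LSV in either table, and held 835 of 91729 LSVs with PMA and 833 of 91480 without it. CCND2, a D-type cyclin, was not analysed here. The genes fell into 5 roles: 14 spindle proteins and kinesins, 16 cyclin-dependent kinases (CDKs) and cyclins, 6 members of the RB and E2F pathway, 12 condensin and cohesin subunits, and 11 genes of the spindle checkpoint, separase and the anaphase-promoting complex (APC/C).

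Polyadenylated RNA of JSL1 cells, a single-clone human T cell line of Jurkat origin, was sequenced from stranded libraries. The 8 libraries fell into 4 groups of 2. The groups were PMA-treated CELF2-depleted cells, PMA-treated control cells, unstimulated CELF2-depleted cells and unstimulated control cells. The phorbol ester PMA, an activator of protein kinase C, was given at 20 ng/mL for 48 hours. CELF2 binds RNA and controls splicing, and it was depleted with integrated short hairpin RNAs switched on by doxycycline. Doxycycline treatment and hairpins of the control cells were not given in the sources used here, and effects of either cannot be told apart from the loss of CELF2. The title of the series gives its purpose as finding the functional targets of CELF2 in T cells.

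Cell division is driven by CDKs bound to cyclins, and RB family proteins restrain the E2F factors that switch on genes for DNA replication. Cohesin holds sister chromatids together and condensin compacts them. Kinesins and microtubule-binding proteins build the spindle, the checkpoint delays anaphase until kinetochores are attached, and the APC/C then marks its targets for destruction. Untreated JSL1 cells, like other leukemia lines, cycle continuously in culture, and many of these genes are spliced in more than 1 way. Cycling was not measured here, so whether it was alike with and without PMA is unknown.

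The value of a junction is its expected share of its LSV, in percent, as 1 value per group in which the authors pooled both libraries. The lowest share in the tables was 2.5% and the highest 97.5%, so these values stand for junctions hardly used or used almost alone. The spread between libraries and the reads behind a share are unknown, and a share says nothing about how much of a gene was expressed. An LSV was called when the authors' deposited table gave a posterior probability (below, posterior) of 0.95 or more that a junction changed by at least 20 percentage points, and a gene was called when it had a called LSV. Rose and fell are used only of called LSVs. The effect of PMA was read as the difference of shares between the tables, which were quantified separately, and has no test. A share also depends on what each LSV holds, so the source and target LSVs of 1 exon can give different values. Of T cell markers, 8 of 10 had an LSV in both tables, against 1 of 5 B cell, 0 of 5 myeloid and 0 of 4 epithelial markers. A listed LSV is not a measure of expression, so these counts cannot establish the cell type.

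Here, 9 variable exons or exon parts of known sequence differed by at least 10 points the same way in a pair of comparisons. The pair was depletion in both states or PMA in both kinds of cells. They are shown 5′ to 3′ because several results below turn on them, while many called LSVs lie at other junctions or introns. The part of KIF2A is an alternative exon end, a class added after values had been seen, and a skip of several CDK6 exons and an alternative site of CDK11A that also passed are given below as junctions. Capitals mark the exon, or in KIF2A the part of an exon, that was included or left out, and lower case the 15 nucleotides of the neighbouring exons on either side. For the KIF23 exon of 312 nucleotides, the first 135 are shown. The sequences are those of GENCODE transcripts, matched by the exon length and both neighbouring intron lengths. The KIF2A part was matched by the length of the following intron alone. Coordinates are those of the tables (hg19). All 9 lie wholly within coding sequence and all 9 lengths are multiples of 3, so including or skipping them keeps the reading frame. NUMA1, CLASP1 and MAD1L1 lie on the minus strand and KIF23, KIF2A and CDK2 on the plus strand.
NUMA1 42-nt exon, ENSG00000137497, chr11:71723447-71723488: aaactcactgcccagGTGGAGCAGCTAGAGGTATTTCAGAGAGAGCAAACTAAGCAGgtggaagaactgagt
CLASP1 48-nt exon, ENSG00000074054, chr2:122203025-122203072: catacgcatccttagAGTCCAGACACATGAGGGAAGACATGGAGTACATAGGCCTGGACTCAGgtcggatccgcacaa
CLASP1 24-nt exon, ENSG00000074054, chr2:122166600-122166623: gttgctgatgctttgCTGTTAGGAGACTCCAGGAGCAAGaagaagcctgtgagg
KIF23 312-nt exon, ENSG00000137807, chr15:69733107-69733418: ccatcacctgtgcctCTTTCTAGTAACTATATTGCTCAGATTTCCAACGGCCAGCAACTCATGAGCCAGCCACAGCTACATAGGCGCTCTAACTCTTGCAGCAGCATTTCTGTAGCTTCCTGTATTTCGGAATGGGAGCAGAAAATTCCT
KIF23 42-nt exon, ENSG00000137807, chr15:69717621-69717662: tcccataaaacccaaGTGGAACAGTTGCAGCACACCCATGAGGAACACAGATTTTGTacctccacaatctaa
KIF2A 57-nt exon part, ENSG00000068796, chr5:61648481-61648537: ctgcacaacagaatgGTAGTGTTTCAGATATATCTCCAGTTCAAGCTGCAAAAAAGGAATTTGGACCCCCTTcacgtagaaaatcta
CDK2 102-nt exon, ENSG00000123374, chr12:56363259-56363360: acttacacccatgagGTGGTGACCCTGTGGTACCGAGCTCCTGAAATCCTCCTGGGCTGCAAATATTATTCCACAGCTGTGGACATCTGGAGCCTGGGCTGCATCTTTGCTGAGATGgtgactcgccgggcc
MAD1L1 141-nt exon, ENSG00000002822, chr7:2265045-2265185: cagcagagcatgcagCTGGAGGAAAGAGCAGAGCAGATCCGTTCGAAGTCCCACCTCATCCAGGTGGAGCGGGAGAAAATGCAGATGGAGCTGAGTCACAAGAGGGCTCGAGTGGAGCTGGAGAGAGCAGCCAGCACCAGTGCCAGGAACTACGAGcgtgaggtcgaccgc
MAD1L1 57-nt exon, ENSG00000002822, chr7:2041700-2041756: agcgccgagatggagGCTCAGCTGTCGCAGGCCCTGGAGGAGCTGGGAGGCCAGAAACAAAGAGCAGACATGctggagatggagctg

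Depletion of CELF2 changed the splicing of 10 of the 59 genes (16.9%) in PMA-treated cells, beside 10.6% of all 11039 genes, and of 8 (13.6%) in unstimulated cells, beside 6.2% of all 10965 genes. With PMA these were the spindle genes CENPE, CLASP1, KIF18A, KIF23 and NUMA1, the kinases CDK2, CDK6 and CDK12, the checkpoint gene MAD1L1 and the APC/C subunit gene CDC16. Without PMA they were KIF23, KIF2A and NUMA1, CDK6, RBL2 and TFDP1 of the RB and E2F pathway, condensin NCAPD3 and cohesin RAD21. CDK6, KIF23 and NUMA1 were called in both states (5.08% of the 59, beside 2.52% of all 11431 genes). Another 7 genes were called with PMA alone (11.9%, beside 7.67%) and 5 without PMA alone (8.47%, beside 3.43%). The other 44 were called in neither (74.6%, beside 86.4%). None of these shares takes the number of LSVs per gene into account. The 3 shared genes were 3 of the 10 called with PMA and 37.5% of the 8 called without it, where over all genes the 288 shared were 24.7% and 42.4%. Whether the effect of depletion differed between the states was not tested.

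A gene with more LSVs has more chances of a call, and the 59 genes had a median of 15 LSVs with PMA and 14 without, against 7 over all genes in either table. Genes with a like number of LSVs would have given 9.0 called genes (15.2%) with PMA and 5.03 (8.53%) without. Counted by LSV, 14 of 835 (1.68%) were called with PMA, beside 1.87% of all LSVs, and 10 of 833 (1.2%) without PMA, beside 0.985%. The counts with PMA were thus near the background of like genes, and those without PMA were 8 against 5.03. A single LSV was called in both states, the target LSV of the KIF23 exon of 312 nucleotides. A further 13 genes with PMA and 11 without had their highest posterior probability between 0.5 and 0.95 in the authors' deposited tables. The share of all genes in that range was not counted.

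**Figure D1:**
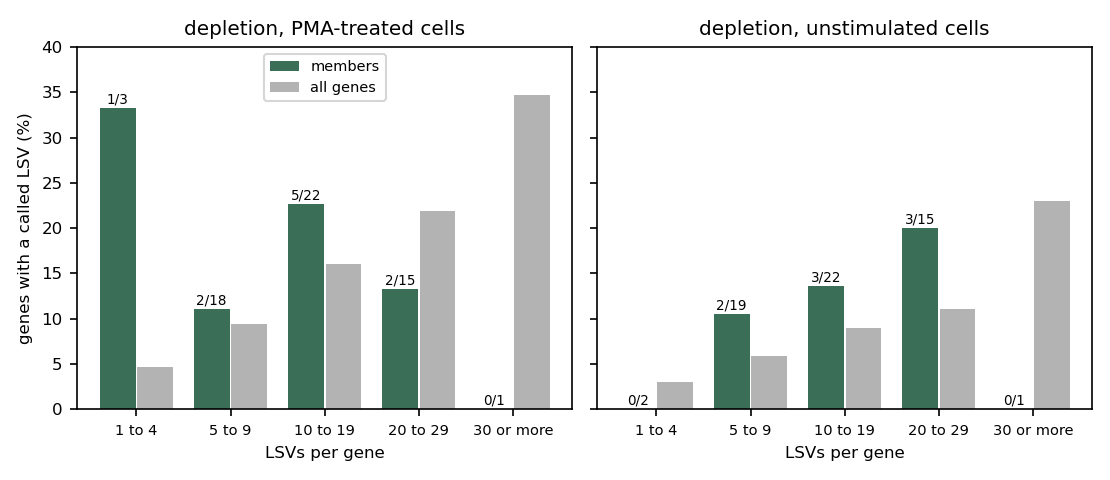
Share of genes with a called LSV on CELF2 depletion, in percent, by the number of LSVs per gene, for the listed mitosis and cell cycle genes (green, members) and all genes (grey), with called over measured members printed above the green bars. The grey bars climb with the number of LSVs, reaching 34.7% with PMA and 23.0% without it at 30 or more LSVs, and the 3 members with 1 to 4 LSVs with PMA are too few to read.

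**Figure D2:**
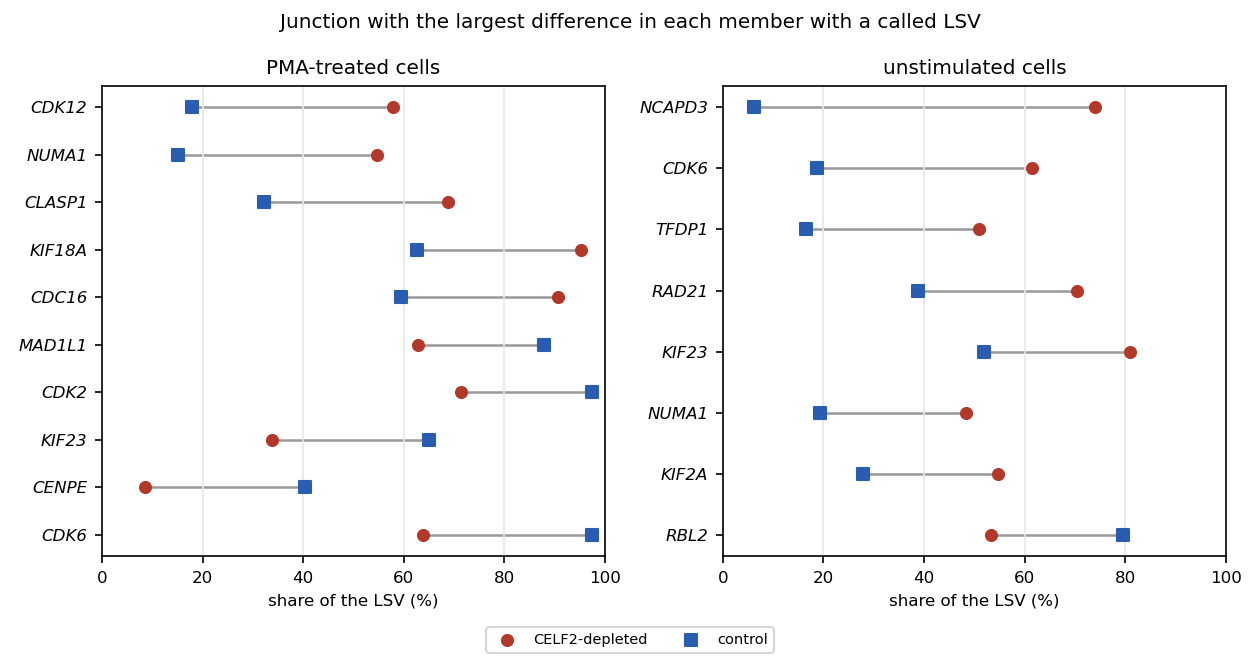
Share of the junction with the largest difference, in percent, in each member with a called LSV, in CELF2-depleted (circles) and control cells (squares), with PMA on the left and without it on the right. The gap is widest for NCAPD3 without PMA, 73.9% in depleted and 6.2% in control cells, and for CDK12 with PMA, 57.9% in depleted and 17.9% in control cells.

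Among the spindle proteins and kinesins, 5 of 14 (35.7%) were called with PMA and 3 of 14 (21.4%) without, where genes with a like number of LSVs would have given 15.1% and 8.16%. The median over genes of the largest difference was 24.5 points with PMA and 12.9 points without. That median grows with the number of LSVs, and it was 9.8 and 8.1 points over all genes, but 13.7 and 10.7 points over genes with a like number of LSVs. NUMA1, which gathers microtubule minus ends at the spindle poles, included its 42-nucleotide exon more often in depleted cells. In its source LSV the exon held 74.2% in depleted and 60.2% in control cells with PMA, and 74.5% in depleted and 46.7% in control cells without it. In its target LSV it held 69.7% in depleted and 52.3% in control cells with PMA, and 71.9% in depleted and 44.6% in control cells without it. Inclusion rose without PMA, where the posterior was 0.979 in the source and 0.974 in the target LSV of the authors' deposited table. With PMA the same difference was 14.0 points in the source LSV, with a posterior of 0.247 in the authors' deposited table, and was not called.

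NUMA1 had 2 further called LSVs. With PMA a retained intron (chr11:71719192-71719483) fell to 45.4% in depleted cells, against 84.8% in control cells, with a posterior of 1.0 in the authors' deposited table. Its share without PMA was 67.1% in depleted and 70.3% in control cells. The junction spliced in its place was also read from the other end, where it was 10.5 points higher in depleted than in control cells with PMA rather than 39.4. The other call was near the 5′ end, in an LSV of 16 choices, the most in any of these genes. There the junction chr11:71747021-71752005 rose to 48.4% in unstimulated depleted cells, against 19.4% in unstimulated control cells. With PMA its share was 35.8% in depleted and 34.9% in control cells. Another junction of that LSV (chr11:71747021-71780888) differed by -20.2 points there without PMA, but by 15.2 points in its other LSV, the opposite direction.

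CLASP1, which stabilises microtubule plus ends, had a pair of short variable exons with opposite differences. Its 48-nucleotide exon rose to 68.7% in PMA-treated depleted cells, against 32.2% in PMA-treated control cells, in a source LSV with a posterior of 0.999 in the authors' deposited table. The target LSV gave 68.4% in depleted and 35.0% in control cells with PMA. Without PMA the source LSV gave 62.9% in depleted and 41.6% in control cells, and its posterior of 0.742 in the authors' deposited table fell short of a call. The 24-nucleotide exon was lower in depleted cells, by 14.9 points with PMA and 21.2 points without it in its source LSV, and neither was called. Its share there was 14.9% in depleted and 29.8% in control cells with PMA, and 31.9% in depleted and 53.1% in control cells without it. That exon was also lower with PMA in both kinds of cells, while the 48-nucleotide exon differed by 5.8 points in depleted and -9.4 points in control cells.

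KIF23 is a subunit of centralspindlin, which organises the midzone during cytokinesis, and its exon of 312 nucleotides separates the longer CHO1 form from the shorter MKLP1 form. Skipping of this exon rose in depleted cells in both states in its target LSV. In the target LSV the skipping junction took 61.3% in depleted and 31.0% in control cells with PMA, and 81.0% in depleted and 52.0% in control cells without it, with posteriors of 0.993 and 0.987 in the authors' deposited tables. The source LSV gave a smaller difference in the same direction, 54.0% in depleted and 37.2% in control cells with PMA, and 77.0% in depleted and 54.3% in control cells without it. It was called in neither state, with posteriors of 0.413 with PMA and 0.833 without it in the authors' deposited tables. With PMA, inclusion was higher in both kinds of cells: the source LSV gave 46.0% with PMA and 23.0% without it in depleted cells, and 62.8% with PMA and 45.7% without it in control cells. Depleted cells without PMA had the lowest inclusion of the 4 groups and control cells with PMA the highest. The 42-nucleotide exon of KIF23 was also higher with PMA, at 45.3% with PMA and 20.5% without it in depleted cells and at 48.7% with PMA and 30.9% without it in control cells, in its source LSV. No depletion call was made for it.

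KIF2A, a kinesin that depolymerises microtubules, used a splice site that adds 57 nucleotides less often in depleted cells. The longer exon took 49.1% in depleted and 74.9% in control cells with PMA, and 45.3% in depleted and 72.2% in control cells without it. It fell without PMA, with a posterior of 0.977 in the authors' deposited table, and with PMA the value was 0.94, just short of the call. PMA made little difference, 3.8 points in depleted and 2.7 points in control cells.

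CENPE, the kinetochore kinesin that brings chromosomes to the metaphase plate, and KIF18A, which dampens their movements there, were called with PMA alone. The CENPE junction chr4:104059606-104060946 fell to 8.6% in PMA-treated depleted cells, against 40.4% in PMA-treated control cells. Without PMA it stood at 2.6% in depleted and 2.7% in control cells. In KIF18A the junction chr11:28110268-28112164 rose to 95.3% in PMA-treated depleted cells, against 62.6% in PMA-treated control cells, and was at 97.4% in depleted and 97.3% in control cells without PMA. In both genes the PMA-treated control cells were the group that differed from the other 3.

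Of the other spindle genes, KIF22, a kinesin that binds chromosome arms, retained an intron (chr16:29811370-29811494) at 55.4% in depleted and 82.0% in control cells with PMA, and at 72.3% in depleted and 81.2% in control cells without it. Its posterior with PMA was 0.787 in the authors' deposited table. Read from its other end, the spliced KIF22 junction differed by 0.9 points with PMA, against 26.6 points here. Another KIF22 intron (chr16:29814011-29814089) was at 97.3% in depleted and 75.5% in control cells without PMA, and at 97.3% in depleted and 90.1% in control cells with it. In its other LSV that intron differed by -3.7 points without PMA, against 21.8. KIF14, a cytokinesis kinesin, had a junction (chr1:200588802-200589539) at 78.8% in depleted and 54.4% in control cells without PMA. KIF15, which helps keep the spindle bipolar, had one (chr3:44803376-44807512) at 7.6% in depleted and 30.7% in control cells with PMA. None of these LSVs was called.

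**Figure D3:**
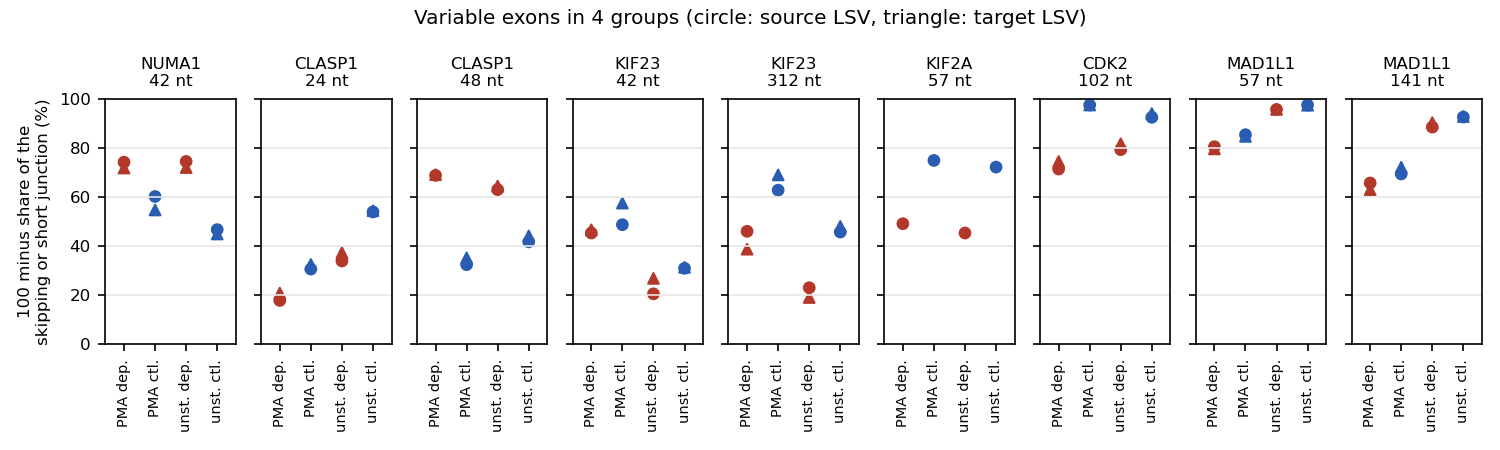
Inclusion of 9 variable exons or exon parts in the 4 groups (red, CELF2-depleted; blue, control), as 100 minus the percent share of the skipping or shorter junction, from source LSVs (circles) and target LSVs (triangles, none for KIF2A). Depleted cells lie above control cells in both states for NUMA1 and the 48-nucleotide CLASP1 exon, and below them for the 312-nucleotide KIF23 exon, KIF2A and CDK2, while both MAD1L1 exons lie lower with PMA.

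Among the CDKs and cyclins, 3 of 16 genes were called with PMA (18.8%) and 1 of 16 without (6.25%). Genes with a like number of LSVs would have given 12.4% and 7.16%. The median largest difference was 13.1 points with PMA and 15.5 points without, against 11.8 and 9.5 points in such genes. CDK2, which drives entry into and passage through S phase, skipped its 102-nucleotide exon more often in depleted cells. The skipping junction rose to 28.6% in PMA-treated depleted cells, against 2.5% in PMA-treated control cells, with a posterior of 1.0 in the source LSV of the authors' deposited table. The target LSV gave 25.5% in depleted and 2.5% in control cells. Without PMA skipping was at 20.7% in depleted and 7.5% in control cells in the source LSV, with a posterior of 0.0852 in the authors' deposited table.

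CDK6, a D-type cyclin partner that phosphorylates RB, had a long skipping junction (chr7:92252400-92462405) that was at 2.5% in control cells of both states. In the source LSV it rose to 31.5% in PMA-treated depleted cells, against 2.5% in PMA-treated control cells. It was at 24.2% in unstimulated depleted cells, against 2.5% in unstimulated control cells, with a posterior of 0.887 in the authors' deposited table. The junction to the neighbouring exon (chr7:92404145-92462405) fell to 63.9% in PMA-treated depleted cells, against 97.5% in PMA-treated control cells, and stood at 75.6% in depleted and 97.5% in control cells without PMA. The target LSV at the far end gave 25.6% in depleted and 2.5% in control cells with PMA, and 18.6% in depleted and 2.5% in control cells without it. The unstimulated call of CDK6 lay elsewhere, at the 5′ end, where the junction chr7:92463004-92465792 rose to 61.4% in unstimulated depleted cells, against 18.8% in unstimulated control cells. With PMA that junction had 44.9% in depleted and 25.6% in control cells.

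CDK12, a kinase of the RNA polymerase II tail that acts with cyclin K, had the largest depletion difference of the 59 genes with PMA. A junction into an exon within the gene (chr17:37687274-37700502) rose to 57.9% in PMA-treated depleted cells, against 17.9% in PMA-treated control cells, and a junction from farther upstream (chr17:37682569-37700502) fell to 40.5% in depleted cells, against 79.6% in control cells. Read from its other end, the junction from farther upstream differed by -4.5 points with PMA, against -39.1. Without PMA the nearer junction was at 67.3% in depleted and 58.8% in control cells. The 3 other groups all lay above the 17.9% of PMA-treated control cells. At a later exon, the junction chr17:37703011-37704021 was higher with PMA in both kinds of cells, 67.9% with PMA and 44.2% without it in depleted cells and 65.6% with PMA and 47.7% without it in control cells.

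Retained introns differed with depletion in CDK10, which pairs with cyclin M, and in CCNL1 and CCNL2, the L-type cyclins that pair with CDK11 and act in RNA processing, but none was called. In CDK10 the intron chr16:89759735-89759805 had 64.7% in depleted and 50.0% in control cells with PMA, and 67.4% in depleted and 44.4% in control cells without it. The next CDK10 intron (chr16:89760449-89760580) had 60.9% in depleted and 49.0% in control cells with PMA, and 65.4% in depleted and 45.7% in control cells without it. In CCNL2 the intron chr1:1326477-1326532 had 77.9% in depleted and 59.8% in control cells with PMA, and 70.4% in depleted and 48.0% in control cells without it. The CCNL2 intron differed by 4.7 points with PMA and 3.4 points without in its other LSV. CCNL1 ran the other way with PMA, where the intron chr3:156869720-156869805 had 62.0% in depleted and 80.6% in control cells. In its other LSV the CCNL1 intron had 15.7% in depleted and 32.4% in control cells with PMA, and 33.7% in depleted and 22.8% in control cells without it, the opposite direction. CDK11A, a partner of the L-type cyclins, had a posterior of 0.592 with PMA in the authors' deposited table, for an alternative splice site whose junction (chr1:1647917-1650797) had 25.8% in depleted and 44.4% in control cells. CDK11A and CDK11B are near-identical copies, so reads may be split between them and this value is uncertain.

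Of the 6 RB and E2F pathway genes, none was called with PMA and 2 without. Genes with a like number of LSVs would have given 0.9 and 0.517 called genes. The median largest difference was 11.6 points with PMA and 10.4 points without, against 13.5 and 11.4 points in such genes. TFDP1, the DNA-binding partner of E2F factors, had an LSV near its 5′ end that was listed for unstimulated cells alone. The effect with PMA is thus not known. Its junction chr13:114239992-114240089 rose to 51.0% in depleted cells, against 16.6% in control cells, with a posterior of 0.994 in the authors' deposited table. Read from its other end, the same junction differed by 1.3 points. RBL2, the RB relative p130, kept an intron (chr16:53504170-53504294) that rose to 46.8% in unstimulated depleted cells, against 20.5% in unstimulated control cells. With PMA it had 26.7% in depleted and 32.6% in control cells. The spliced RBL2 junction in the other LSV that holds it differed by -12.6 points without PMA, where the called LSV gave -26.3.

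E2F3, an E2F activator, and the cyclin gene CCNL1 were the genes of the list with a junction or intron past 10 points in both states in opposite directions. The E2F3 junction chr6:20480188-20481437 had 66.5% in depleted and 84.6% in control cells with PMA, and 87.4% in depleted and 74.9% in control cells without it. Another E2F3 junction (chr6:20404063-20480077) had 97.2% in depleted and 75.9% in control cells with PMA, with a posterior of 0.826 in the authors' deposited table. Read from its other end, that junction differed by 0.2 points with PMA, against 21.3. RB1 itself had no difference of 5 points in any of the 4 contrasts.

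Of the 12 condensin and cohesin genes, none was called with PMA and 2 without. Genes with a like number of LSVs would have given 2.21 and 1.25 called genes. The median largest difference was 10.7 points with PMA and 10.9 points without, against 15.5 and 12.7 points in such genes. NCAPD3, a condensin II subunit, had the largest difference of all members. The junction chr11:134093894-134094991 rose to 73.9% in unstimulated depleted cells, against 6.2% in unstimulated control cells, and the intron chr11:134094111-134094180 fell by 48.0 points. That LSV was not listed for PMA-treated cells, so the effect there is not known. RAD21, the cohesin subunit cleaved at anaphase, had a junction near its 5′ end (chr8:117879000-117886850) that rose to 70.3% in unstimulated depleted cells, against 38.7% in unstimulated control cells. With PMA that junction had 58.9% in depleted and 55.4% in control cells, and no RAD21 junction differed by 5 points on depletion with PMA.

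NCAPG2 and NCAPH2, both condensin II subunits, fell short of a call. In NCAPG2 the junction chr7:158455059-158455684 had 2.5% in depleted and 24.2% in control cells with PMA, and 2.5% in both without it. Its posterior probability with PMA was 0.908 in the authors' deposited table. The junction used in its place in NCAPG2 differed by 21.7 points there and by -8.5 points in its other LSV. In NCAPH2 the intron chr22:50958182-50958838 had 85.6% in depleted and 59.5% in control cells without PMA, and 65.4% in depleted and 56.9% in control cells with it. In its other LSV the NCAPH2 intron differed by -1.6 points without PMA, against 26.1, and its spliced junction by -0.5 points, against -26.1. STAG2, a cohesin subunit, had a junction (chrX:123094716-123156381) at 33.6% in depleted and 52.4% in control cells with PMA, and at 30.3% in depleted and 29.6% in control cells without it. Read from its other end, the STAG2 junction differed by -9.0 points with PMA, against -18.8. Another STAG2 junction (chrX:123224614-123227868) was higher in depleted cells by 18.1 points with PMA and 9.5 points without in its source LSV. Its target LSV gave 16.6 and 9.1 points, and it was not called.

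Of the 11 checkpoint, separase and APC/C genes, 2 were called with PMA and none without. Genes with a like number of LSVs would have given 1.8 and 0.976 called genes. The median largest difference was 13.9 points with PMA and 10.6 points without, against 14.7 and 11.7 points in such genes. CDC16, an APC/C subunit, changed at an intron near the 5′ end of the gene. The spliced junction chr13:115007755-115008732 rose to 90.6% in PMA-treated depleted cells, against 59.5% in PMA-treated control cells, in the target LSV. It rose to 73.5% in depleted cells, against 42.9% in control cells, in the source LSV. Without PMA the target LSV gave 85.4% in depleted and 79.2% in control cells. A later CDC16 intron (chr13:115037961-115038038) differed in the opposite sense, with more retention in depleted cells: 74.8% in depleted and 52.6% in control cells with PMA, and 76.0% in depleted and 54.8% in control cells without it. Its LSVs were not called, with posteriors of 0.844 with PMA and 0.803 without in the source LSV of the authors' deposited tables.

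MAD1L1 encodes MAD1, which holds MAD2 at unattached kinetochores. Its junction chr7:1976533-1979724 rose to 37.2% in PMA-treated depleted cells, against 12.2% in PMA-treated control cells, and stood at 3.1% in depleted and 2.5% in control cells without PMA. BUB1B, the checkpoint kinase BubR1, had a junction (chr15:40477580-40477752) at 94.4% in depleted and 73.2% in control cells with PMA, and at 96.7% in depleted and 79.9% in control cells without it, and was not called. ANAPC5, another APC/C subunit, kept an intron (chr12:121747667-121747772) at 85.7% in depleted and 69.7% in control cells with PMA, and at 96.6% in depleted and 76.4% in control cells without it, and was not called either. That intron differed by 0.8 points with PMA and by -1.0 points without it in its other LSV. An ANAPC5 junction (chr12:121766300-121768386) was higher in depleted cells by 17.6 points with PMA and 9.7 points without in its source LSV. Its target LSV gave 16.8 and 8.8 points. With PMA its highest posterior was 0.505 in the authors' deposited table.

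**Figure D4:**
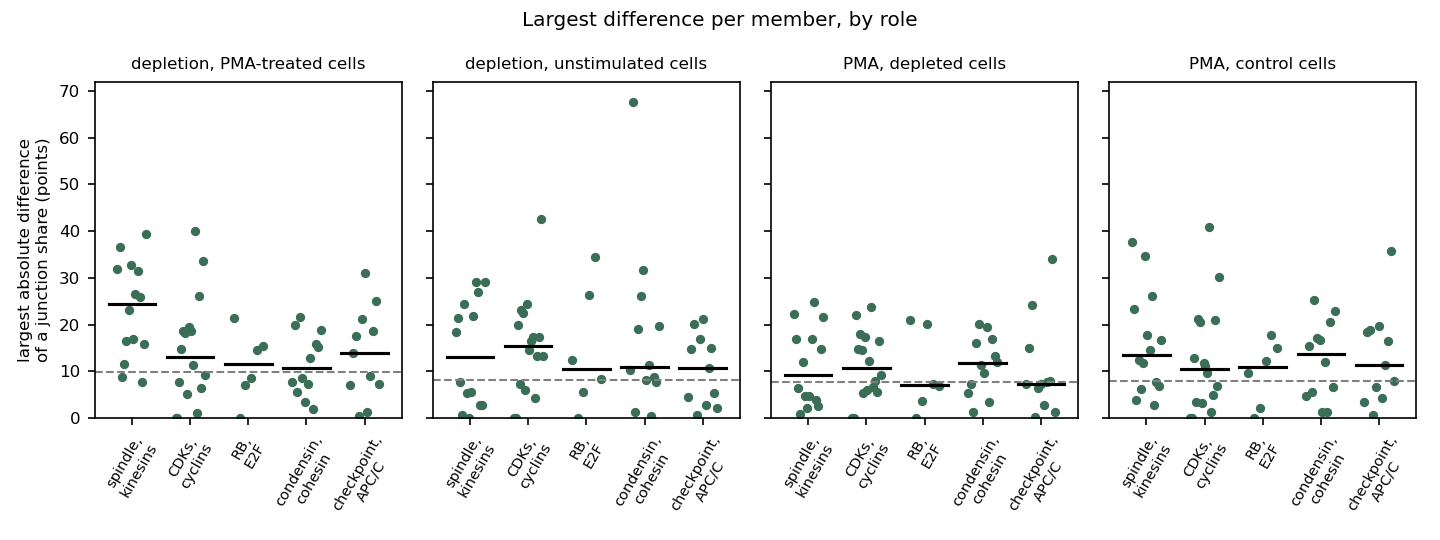
Largest absolute difference of a junction share per gene, in percentage points, for the 59 genes by role in each of the 4 contrasts. Each point is 1 gene, solid bars are medians over the role and the dashed line is the median over all genes, whatever their number of LSVs. The 14 spindle genes reach a median of 24.5 points for depletion with PMA, where the other roles lie between 10.7 and 13.9 points.

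The depletion contrasts with and without PMA share no library, so the direction of a difference could be read in each separately. Taking in each LSV the junction with the largest difference without PMA, 68 LSVs of these genes differed by at least 10 points there, and 53 of them (77.9%) differed in the same direction with PMA, beside 73.1% over all genes. Where the difference was at least 10 points in both states, 29 of 30 LSVs (96.7%) had the same direction, beside 84.6% over all genes. These 29 LSVs came from 14 genes, among them CDK2, CDK6, CDK10, CLASP1, KIF23, KIF2A and NUMA1. The source and target LSVs of 1 exon were counted separately, so some events, such as the CDK2 exon, enter more than once. Taking 1 junction per gene without a minimum size, 35 of 57 genes (61.4%) had the same direction, beside 62.8% over all genes.

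**Figure D5:**
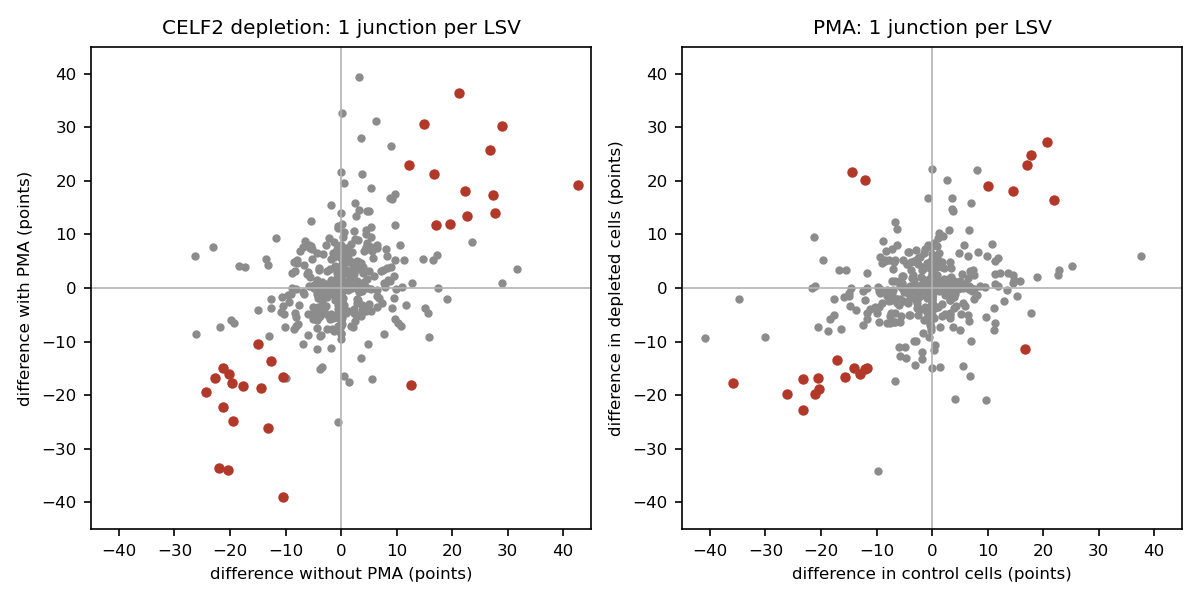
Differences of junction shares in percentage points, 1 junction per LSV of the mitosis and cell cycle genes. Left, CELF2 depletion without PMA (horizontal) and with PMA (vertical). Right, PMA in control cells (horizontal) and in depleted cells (vertical). Red points differ by at least 10 points on both axes: 29 of 30 have the same sign on the left and 19 of 22 on the right.

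Shares with and without PMA differed by at least 20 points in 10 of the 59 genes in depleted cells (16.9%, beside 11.4% of all genes) and 13 in control cells (22.0%, beside 14.7% of all genes). Genes with a like number of LSVs would have given 9.14 and 11.5 genes, so both counts were near the background. In depleted cells these were ANAPC5, CCND3, CDK12, CENPE, E2F3, KIF23, MAD1L1, NCAPH2, NUMA1 and RBL2. In control cells they were CCNL1, CCNL2, CDK4, CDK7, CDK12, CENPE, CLASP1, KIF18A, KIF23, MAD1L1, NCAPG2, SMC4 and STAG2. CDK12, CENPE, KIF23 and MAD1L1 stand in both lists, and the share of all genes in both was not counted. In CDK12 and CENPE the largest difference lay at different junctions in control and in depleted cells. For CENPE it was 37.7 points at chr4:104059606-104060946 in control cells. In depleted cells the CENPE junction chr4:104063065-104065488 differed by -22.3 points. A gene was counted if either LSV passed 20 points, and for CCNL1, CDK4, CDK7, NCAPG2 and SMC4 in control cells and ANAPC5, NCAPH2, NUMA1 and RBL2 in depleted cells the junction with the largest difference stayed under 10 points in its other LSV. The median largest difference was 8.0 points in depleted and 11.7 points in control cells, beside 7.6 and 7.9 points over all genes and 10.3 and 10.9 points over genes with a like number of LSVs.

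MAD1L1 differed with PMA in both kinds of cells, in a pair of coding exons. Its 141-nucleotide exon had 65.5% with PMA and 88.2% without it in depleted cells, and 69.1% with PMA and 92.4% without it in control cells, in the source LSV. The target LSV gave 61.8% with PMA and 89.9% without it in depleted cells, and 71.7% with PMA and 92.0% without it in control cells. Its 57-nucleotide exon had 80.5% with PMA and 95.7% without it in depleted cells, and 85.4% with PMA and 97.5% without it in control cells. Both exons were thus lower with PMA in both kinds of cells, and neither had a depletion call. Another MAD1L1 junction (chr7:2054277-2106125) had 31.3% with PMA and 13.5% without it in depleted cells, and 43.9% with PMA and 8.1% without it in control cells.

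CCND3, a D-type cyclin, had a distant junction (chr6:41908323-42016239) at 43.6% with PMA and 21.6% without it in depleted cells and at 49.5% with PMA and 41.4% without it in control cells, in the source LSV. The target LSV of the same junction gave 19.4% with PMA and 3.4% without it in depleted cells, and 14.5% with PMA and 2.5% without it in control cells. SMC4, a core condensin ATPase, had a short intronic stretch (chr3:160122147-160122165) at 96.1% with PMA and 79.3% without it in depleted cells, and at 95.8% with PMA and 75.3% without it in control cells. ANAPC5 had a junction (chr12:121755957-121756080) at 77.5% with PMA and 53.4% without it in depleted cells, and at 61.3% with PMA and 51.9% without it in control cells. Read from its other end, that ANAPC5 junction differed by 9.8 points in depleted cells, against 24.1. CDK7, the kinase that activates other CDKs, had a junction (chr5:68551355-68553870) at 75.4% with PMA and 84.5% without it in depleted cells, and at 66.1% with PMA and 96.2% without it in control cells. In its other LSV that CDK7 junction did not differ (0.0 points in control cells, against -30.1). CDK4 had a junction (chr12:58144346-58144439) at 27.9% with PMA and 27.6% without it in depleted cells, and at 23.9% with PMA and 44.9% without it in control cells. That CDK4 junction, in its other LSV, differed by -0.3 points in control cells, against -21.0.

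The PMA contrasts in depleted and in control cells share no library with each other. In 77 LSVs a junction differed by at least 10 points with PMA in control cells, and 58 of them (75.3%) differed in the same direction in depleted cells, beside 63.8% over all genes. Where the difference was at least 10 points in both, 19 of 22 (86.4%) had the same direction, beside 74.3% over all genes, and the 3 that did not were in NUMA1, RAD21 and RBL2. Here too the source and target LSVs of 1 exon were counted separately. Taking 1 junction per gene, 37 of 56 genes (66.1%) had the same direction, beside 55.7% over all genes. The depletion and the PMA contrasts do share groups, so no relation between them was read.

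In 5 of the 59 genes the PMA-treated control cells lay at least 20 points from each of the other groups on 1 side (8.47%, beside 5.74% of all genes): CDK12, CENPE, KIF18A, KIF23 and NCAPG2. The PMA-treated depleted cells stood apart in 2 genes (3.39%, beside 2.63% of all genes), MAD1L1 and NUMA1. The unstimulated depleted cells stood apart in 2 genes (3.39%, beside 2.52%), KIF23 and NCAPH2, and the unstimulated control cells in 2 (3.39%, beside 1.75%), CCNL2 and CLASP1. The rule was set after values had been seen. These shares were not compared with genes of a like number of LSVs, and the 59 genes had more LSVs per gene than all genes. Each group is 1 pooled value, so whether a single library gave these shares cannot be told apart from the condition.

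At the other end, BUB1, CCNA2, CCNB1, CDC23, RB1 and SMC3 differed by less than 5 points in every contrast. These are a checkpoint kinase, cyclins A and B, an APC/C subunit, the RB protein and a cohesin ATPase. They had between 2 LSVs in CCNA2 and 16 in BUB1, against a range over the list of 2 in CCNA2 to 30 in NCAPD2. On depletion, 8 of the 59 genes stayed under 5 points with PMA and 14 without it. Shares of all genes under 5 points were not counted, so these numbers have no background.

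Of 101 further genes of the same pathways, 8 of the 100 measured with PMA (8.0%) and 5 of the 98 measured without it (5.1%) had a called LSV on depletion, beside 10.6% and 6.2% of all genes and 11.9% and 7.04% of genes with a like number of LSVs. With PMA these were ANAPC2, ASPM, AURKA, CDC25B, CDCA8, CHEK1, ECT2 and MIS12, and without PMA ASPM, CENPC, CHEK1, LIN54 and MCM7. For PMA, 8 of 98 (8.16%) in depleted cells and 12 of 98 (12.2%) in control cells passed 20 points, beside 11.4% and 14.7% of all genes and 12.6% and 16.5% of genes with a like number of LSVs. All 4 shares were below those of the 59 listed genes, of all genes and of genes with a like number of LSVs, and these differences were not tested. The further genes had a median of 9 LSVs in each contrast.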

How the data were processed

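Polyadenylated RNA of the 8 libraries was prepared with a stranded TruSeq kit, per the labels' protocols. STAR 2.5.1b and hg19 are named in the submitters' processing notes, with no role given. The authors deposited 2 tables, 1 for each state, whose columns are those of VOILA, the reporting program of MAJIQ, per the file headers. Version, annotation and read filters of that program were not given in the sources used here. Per the file headers, a line describes 1 LSV and holds for every junction the expected share in either group (a fraction, given here in percent), the expected change and the posterior. The authors pooled both libraries of a group, so depth is unknown and no standard deviation, interval or test over samples could be had. No per-library column was left unused (0 columns). The posterior is the authors' measure of error, with no adjustment over LSVs.

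The tables were joined by LSV, and source or target was read from the LSV type. PMA differences were taken between the tables at 20 points or more. Expected counts at like LSV number came from all genes with 1 to 4, 5 to 9, 10 to 19, 20 to 29, and 30 or more LSVs. Members, gene lists, rules and alternatives were chosen with earlier results of these data known. Named genes were those with a called LSV, the 10 largest differences per contrast, those with a posterior between 0.5 and 0.95, and exons differing by at least 10 points the same way in a pair of contrasts, with the others named as examples. Counting was checked on simulated tables. Python 3.11.15, pandas 2.3.3, NumPy 2.4.6 and Matplotlib 3.10.9 were used. Alternatives are given in the closing section.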

Additional observations from a re-analysis of the deposited data

How the results depend on the processing

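Counts of called genes moved with the call rule. On depletion with PMA, 10 genes became 3 without LSVs holding junctions absent from the authors' annotation (de novo), 3 with LSVs of 2 choices alone, and 16 by an expected change or by a difference of shares of at least 20 points. Without PMA, 8 became 5 at a posterior probability of 0.99, 2 without de novo junctions, 3 with LSVs of 2 choices, 15 by expected change and 17 by difference of shares. Cuts of 0.90 and LSVs listed in both tables left both counts within 1.5 times, as did 0.99 with PMA. For PMA in depleted cells, 10 became 27 at 10 points, 1 at 30 points, 3 without de novo junctions and 6 with LSVs of 2 choices. For PMA in control cells, 13 became 33, 5, 3 and 4 under the same changes. With PMA the members called were 3 of 48 (6.25%, beside 4.99% of all genes) without de novo junctions and 3 of 58 (5.17%, beside 4.58%) with LSVs of 2 choices, and 27.1% beside 19.9% by expected change and 21.6% by difference of shares. Without PMA they were 8.47% beside 3.84% at 0.99, 2 of 50 (4.0%, beside 2.86%) without de novo junctions, 3 of 58 (5.17%, beside 2.49%), 25.4% beside 13.7%, and 28.8% beside 15.6%. For PMA in depleted cells the shares were 45.8% beside 39.4% at 10 points, 1.69% beside 2.9% at 30 points, 3 of 48 (6.25%, beside 5.04%) and 6 of 58 (10.3%, beside 4.58%). For PMA in control cells they were 55.9% beside 42.0%, 8.47% beside 4.42%, 3 of 48 (6.25%, beside 7.21%) and 4 of 58 (6.9%, beside 6.22%). The members thus lay below all genes at 30 points in depleted cells and without de novo junctions in control cells, where they lay above them at 20 points. Fewer LSVs or members are tested in the stricter settings. None of these shares was compared with genes of a like number of LSVs. Genes with the same direction of depletion numbered 20 of 34 without de novo junctions, against 35 of 57, and for PMA 23 of 33 at 10 points and 18 of 33 without de novo junctions, against 37 of 56. Read in the other LSV that holds the same junction, CCNL1 with PMA in control cells differed by 0.1 points, against -21.2, a reversal of sign. In the other 17 junctions so checked, 14 had the same direction. In 3 (KIF23, CDK7 and NCAPG2) there was no difference, where the junction was at the ceiling of its other LSV. Among those 14, the other LSV gave little in KIF22 (0.9 points, against 26.6), TFDP1 (1.3, against 34.4) and NCAPH2 (-0.5, against -26.1, and 1.5, against 20.2). Of junctions past 10 points in their source LSV, 39 of 39 had the same sign in the target LSV on depletion with PMA. Without PMA 31 of 37 did, and for PMA 23 of 27 in depleted and 34 of 40 in control cells. Reversals included ANAPC11 (chr17:79849982-79851428), at 15.5 points against -11.8 in control cells. These counts started from junctions in their source LSV. Started from the target LSV, reversals also occurred on depletion with PMA. NCAPG2 (chr7:158455059-158456876) had 21.7 points in its target LSV and -8.5 in its source LSV. A CDK6 intron (chr7:92463005-92463116) had -6.0 points in its target LSV and 16.1 in its source LSV. The cause of these moves was not tested. No paired analysis was possible because each table holds 1 pooled value per group, and for the same reason no library could be left out. Depth is unknown, so its effect on the shares cannot be given.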

Other observations

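Several further genes of cell division, on a list chosen by function, had called LSVs on depletion. ASPM, which acts at spindle poles, was called in both states at the same junction (chr1:197074315-197086919), which fell to 13.0% in depleted cells, against 48.1% in control cells, with PMA, and to 10.2% in depleted cells, against 47.1% in control cells, without it. CHEK1, the checkpoint kinase of replication stress, was called in both states at different junctions. With PMA the junction chr11:125496728-125499127 rose to 37.5% in depleted cells, against 9.5% in control cells. Without PMA chr11:125495907-125496644 fell to 16.4% in depleted cells, against 71.3% in control cells. The latter junction had no value with PMA, so its difference there is not known. AURKA, a spindle pole kinase, had a junction (chr20:54963258-54965612) that rose to 40.6% in depleted cells, against 11.3% in control cells, with PMA, and had 50.9% in depleted and 38.6% in control cells without it.

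ECT2, which activates RhoA for cytokinesis, had a junction (chr3:172473164-172473273) that rose to 39.3% in PMA-treated depleted cells, against 2.7% in PMA-treated control cells. CDCA8, the chromosomal passenger protein borealin, had one (chr1:38158250-38158348) that fell to 18.9% in PMA-treated depleted cells, against 61.3% in PMA-treated control cells, and had 24.4% in depleted and 45.5% in control cells without PMA. MCM7, a subunit of the replicative helicase, had one (chr7:99697716-99698887) that fell to 71.1% in unstimulated depleted cells, against 97.5% in unstimulated control cells, and had 86.1% in depleted and 64.7% in control cells with PMA, the opposite direction. These values were chosen after the calls were seen.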
